A study of Arabidopsis thaliana with 12 samples.

Results

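The latest state of a sulfur deficiency time course in Arabidopsis thaliana (Columbia ecotype, whole roots) was compared with its starting point. The comparison rested on 4 of the 12 arrays of the series, chosen by their titles: 2 arrays of roots kept for 72 h on sulfur-deficient medium and 2 arrays of 0 h roots, called array 1 and array 2 of their group by the replicate number in the titles. In both groups seedlings first grew for 5 days on standard MS medium. The 72 h group was then moved to an agar medium with sucrose and with no sulfate among its listed salts, and the 0 h group to fresh standard MS. Roots moved to deficient medium for 48 h (2 arrays) served as a second reference, and the arrays of 3, 12 and 24 h entered the estimate of spread and are given as means. No root was sampled from standard medium at 72 h. The effect of sulfur deficiency therefore cannot be told apart from that of transfer, of seedling age or of the hour of harvest, and below "rose" and "fell" mean different from 0 h.

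Plants take up sulfate, activate it with ATP sulfurylase and reduce it through sulfite to sulfide, which enters cysteine. Cysteine supplies methionine and glutathione, and methionine also starts the aliphatic glucosinolates, sulfur-rich defence compounds of the cabbage family. When sulfate runs short, roots of this species are known to induce a set of marker genes, among them sulfate transporters, and to lower glucosinolate synthesis. A transcript was measured by a probe set, a group of short probes whose brightness the submitters' software combined into 1 signal on a linear scale. A probe set was tested where its signal exceeded a floor, the 40th percentile of its array (45.3 to 50.4), on at least 2 of the 12 arrays, and was called where the adjusted p of the fit was under 0.05.

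At 72 h, 906 of 14678 tested probe sets were called, or 6.17%, with 427 higher (2.91%) and 479 lower (3.26%) than at 0 h. A log2 difference of at least 1, which is 2-fold, was reached by 170 of the higher and 286 of the lower ones. A 4-fold difference was reached by 34 and 65 of them. There were 482 calls without 72 h array 1, 322 calls without 72 h array 2, 1005 calls without 0 h array 1 and 490 calls without 0 h array 2. Where a gene lost its call with 1 of these 4 arrays left out, the range of its log2 difference over the 4 omissions is given beside it. The median log2 difference over all tested probe sets was -0.0026. The array annotation paired only part of the probe sets with a single gene, which left 7880 tested genes. Of these, 434 were called (5.51%), 200 higher (2.54%) and 234 lower (2.97%), and these shares are the background against which the counts of each gene group stand. The groups and their members were chosen with earlier results of these data known, so their counts are descriptions. The 2 arrays of 72 h correlated with each other at 0.982 over log2 signals and those of 0 h at 0.969, against 0.936 to 0.957 between the groups. For the actin control, the signal at the 3' end over that at the 5' end, a measure of RNA integrity, was 2.38 and 3.19 at 72 h and 2.78 and 3.27 at 0 h, so the groups overlapped in it. For the GAPDH control the same ratio was 1.047 and 1.030 at 72 h and 0.895 and 0.953 at 0 h, so there the groups did not overlap. The part of RNA integrity in the calls was not tested.

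**Figure D1:**
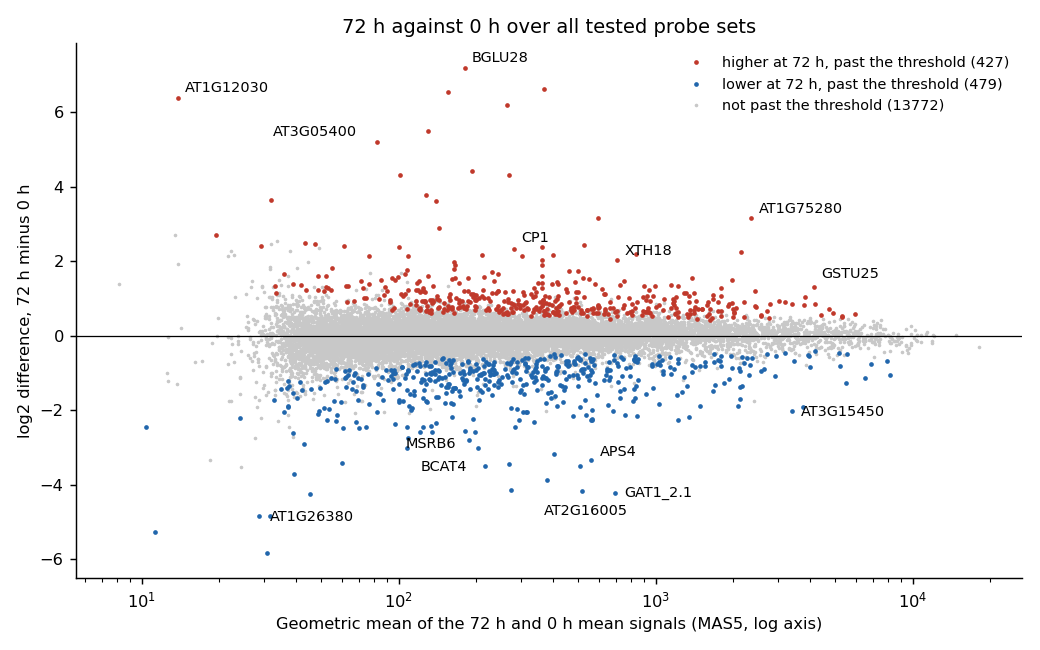
Log2 difference, 72 h minus 0 h, of each tested probe set against the geometric mean of its mean signals at 72 h and 0 h (log axis). The 427 higher calls are red, the 479 lower calls blue and the rest grey, and the rises of BGLU28 and AT3G05400 and the falls of APS4, BCAT4 and AT2G16005 stand far outside the grey band.

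Both tested sulfur deficiency markers rose. BGLU28, a beta-glucosidase long used as a marker of sulfur shortage, had signals of 2005 and 2360.0 at 72 h, against 15.8 and 14.0 at 0 h. The 0 h values lay below this floor, while both 72 h values were far above it. Its log2 difference was 7.19 ± 0.31 (SE, adjusted p = 1.12e-08), and with an offset of 16.3 added before the logarithm, which shrinks ratios of dim signals, it was 6.14. AT1G04770 (SDI2) is the second marker, whose product is known to act against glucosinolate synthesis. Its signals were 810.8 and 827.8 at 72 h, against 156.1 and 161.2 at 0 h, a 5.16-fold difference between groups that did not overlap (log2 difference 2.37 ± 0.18, adjusted p = 2.67e-06). Over the course the 2 markers were at or near their 72 h level already at 3 h, with mean signals of 2377 and 951.8. Both then stood lower at 12 h, at 265.7 and 567.1, and reached 2182 and 819.3 at 72 h.

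Of 3 tested enzymes of sulfate assimilation, 1 fell and 2 were not called. APS4, one of the ATP sulfurylases that activate sulfate, had signals of 178.3 and 174.1 at 72 h, against 1808 and 1759 at 0 h. The 2 arrays of each group lay close together and the groups were far apart, at a 10.1-fold lower level in 72 h roots (log2 difference -3.34 ± 0.20, adjusted p = 2.10e-07). Its mean signals at 0, 3, 12, 24, 48 and 72 h were 1783, 1512, 994.2, 872.5, 314.9 and 176.2, lower at each later time. The isoform APS3 behaved differently, with 131.1 and 128.8 at 72 h, against 104.6 and 101.6 at 0 h. Its groups did not overlap, yet the log2 difference of 0.33 ± 0.18 was not called (adjusted p = 0.319), and its highest mean signal, 365.9, was that of 3 h. Sulfite reductase SIR, which makes sulfide, had signals of 1699 and 1511 at 72 h, against 1568 and 1366 at 0 h, with overlapping groups (log2 difference 0.13 ± 0.14, adjusted p = 0.659).

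**Figure D2:**
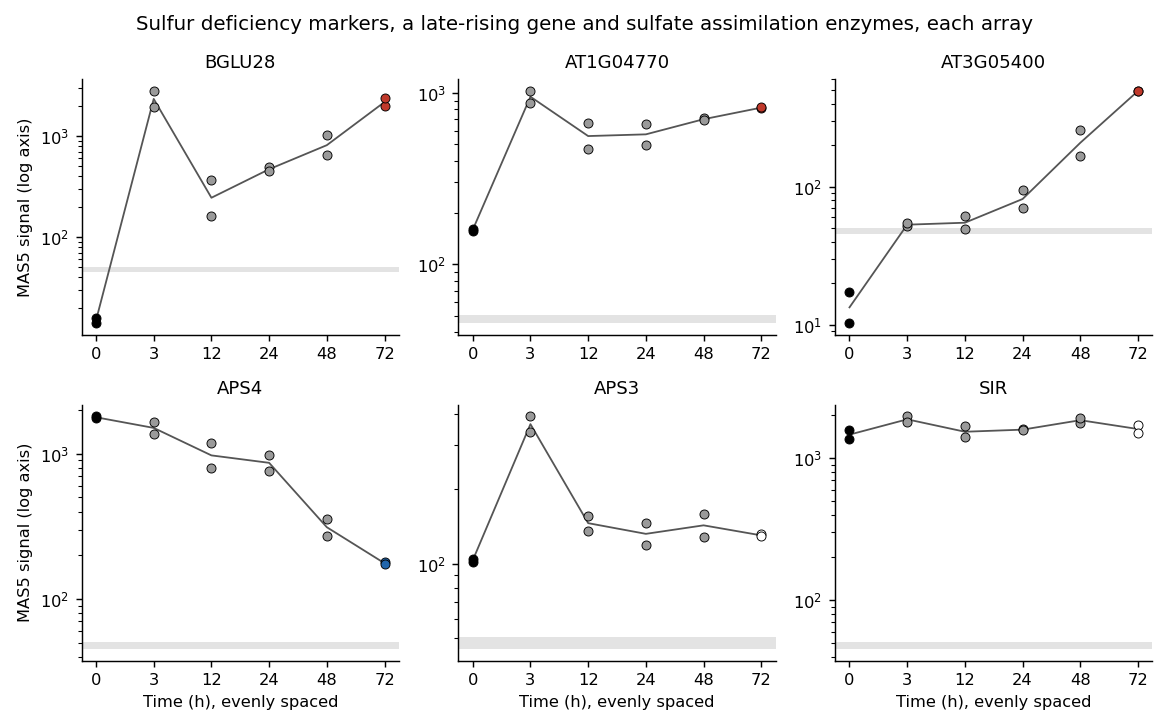
Signal (log axis) of each array over the 6 times, evenly spaced, for BGLU28, AT1G04770, AT3G05400, APS4, APS3 and SIR. Each point is 1 array (black for 0 h, grey for 3 to 48 h, and at 72 h red for a rise, blue for a fall and white where not called), the line joins the geometric means, and the grey band spans the 40th percentiles of the arrays. BGLU28 and AT3G05400 lie below the band at 0 h, and APS4 is lower at each later time.

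Around this pathway, few of the tested genes moved. HL, a HAL2-like phosphatase of the kind that clears the nucleotide left over when sulfate groups are transferred, rose by 1.38 ± 0.18 on the log2 scale (adjusted p = 4.30e-04), with signals of 652.9 and 694.9 at 72 h, against 262.6 and 256.5 at 0 h. None of the 4 tested genes of methionine and S-adenosylmethionine metabolism was called. They were MGL, the methionine-degrading lyase, at a log2 difference of 0.63 ± 0.30, and HMT-1, CBL and MMT, which lay between -0.19 and 0.27. SAMTL, an S-adenosylmethionine transporter-like gene outside that list, fell by 0.96 ± 0.21 (adjusted p = 0.0139), a call lost without 0 h array 2 or either 72 h array (range -1.13 to -0.80). In glutathione metabolism none of 3 was called, with the reductases GR1 at 0.15 and GR at -0.17 and AT1G44790 at -0.17. No gene of sulfate transport or of cysteine synthesis could be described, since the annotation pairs none of them with a probe set of its own.

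Most tested genes of aliphatic glucosinolate synthesis fell. Of 4 members of that list 3 were lower (75%, against 2.97% of named genes) and none rose. The median log2 difference was -1.40, against the median of -0.0026 over all probe sets. BCAT4, the aminotransferase that takes methionine into side-chain elongation, had signals of 61.3 and 68.3 at 72 h, against 738.2 and 716.0 at 0 h, an 11.2-fold lower level in 72 h roots (log2 difference -3.49 ± 0.17, adjusted p = 2.56e-08). AT2G31790, a member known here only by its locus, had 68.3 and 43.3 at 72 h, against 189.1 and 171.6 at 0 h (log2 difference -1.73 ± 0.27, adjusted p = 0.00168), with 1 of its 72 h arrays below the floor. GSTU20, a glutathione transferase proposed to act in the glutathione step of the pathway, had 181.5 and 130.2 at 72 h, against 391.2 and 265.8 at 0 h. Its groups were apart but each spread widely, and its log2 difference of -1.07 ± 0.25 (adjusted p = 0.0229) was not called without 0 h array 1 (-0.79) or without 72 h array 2 (-0.83, range -1.35 to -0.79). UGT74B1, the S-glucosyltransferase of the core pathway, was not called at -0.48 ± 0.19 (adjusted p = 0.164), although its arrays of 72 h, 323.7 and 258.3, lay below those of 0 h, 364.1 and 447.4. With 1 array left out at a time, 2 or 3 of the 4 members were called lower.

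The transporters that move glucosinolates between cells differed in direction. GTR1 had signals of 465.5 and 489.8 at 72 h, against 200.4 and 267.2 at 0 h, and rose by 1.05 ± 0.18 (adjusted p = 0.00269). GTR2 had 452.7 and 352.2 at 72 h, against 652.2 and 933.7 at 0 h, and fell by 0.97 ± 0.25 (adjusted p = 0.0324), a call lost without 0 h array 2 or without either 72 h array, where it lay between -1.23 and -0.71. Of the enzymes that break glucosinolates down, PYK10, the abundant beta-glucosidase of root endoplasmic reticulum bodies, had signals of 10486 and 11832 at 72 h, against 14025 and 11570.0 at 0 h, with overlapping groups and no call (log2 difference -0.19 ± 0.13, adjusted p = 0.445). NAI2, a structural protein of the same bodies, fell by 0.46 ± 0.13 (adjusted p = 0.048) and was not called whichever of the 4 arrays was left out (range -0.55 to -0.36). Over the 8 tested genes named as beta-glucosidases, BGLU28 included, 2 rose (25%, against 2.54% of named genes) and 2 fell (25%, against 2.97%). BGLU15, the chromosomal neighbour of BGLU28, rose by 0.52 ± 0.14 (range 0.37 to 0.68). BGLU45 and BGLU46, which act on lignin precursors stored as glucosides, had log2 differences of -1.18 (range -1.54 to -0.82) and -0.98 (range -1.26 to -0.70). These 3 calls were lost without 0 h array 2, without 72 h array 1 and without 72 h array 2, when only BGLU28 of the 8 was called.

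Methionine sulfoxide reductases, which repair oxidised methionine, moved in both directions within 1 family. MSRB6 had signals of 63.2 and 78.5 at 72 h, against 440.5 and 731.6 at 0 h, and fell by 3.01 ± 0.30 (adjusted p = 4.11e-05). MSRB5, its neighbour on the chromosome, had signals of 4661 and 4427 at 72 h, against 2471 and 2620.2 at 0 h, and rose by 0.84 ± 0.13 (adjusted p = 0.00155). For both genes the groups were apart, and both calls held with each of the 4 arrays left out in turn. The other 3 members, MSRA5, MSRB9 and MSRB3, were not called and lay between 0.05 and 0.39. The 2 neighbours are related in sequence and share a chromosome position, and how far their probes cross-hybridise was not tested.

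Tau-class glutathione transferases, which attach glutathione to foreign or reactive compounds, likewise moved in both directions. Of 9 tested members 3 rose (33.3%, against 2.54% of named genes) and 2 fell (22.2%, against 2.97%), and the median was -0.35. GSTU25 had signals of 6546 and 6495 at 72 h, against 2533 and 2710.5 at 0 h, GSTU27 had 2161 and 2038 at 72 h, against 960.5 and 937.1 at 0 h, and GSTU22 had 3579 and 3880.5 at 72 h, against 1836 and 2331 at 0 h. In each of the 3 both 72 h arrays lay above both 0 h arrays, with log2 differences of 1.32 ± 0.12, 1.15 ± 0.14 and 0.85 ± 0.13, and each call held with each array left out in turn. The members that fell were GSTU20, given above, and GSTU28 at -0.69 ± 0.19. GSTU28 was not called without 0 h array 2 or without either 72 h array (range -0.97 to -0.41), and without 72 h array 2 the family had 3 calls, all higher. GSTU23 and GSTU26 had log2 differences of -1.22 and -0.75 and were not called. The list mixes near-identical copies, so signals of its members may be partly shared.

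UDP-glycosyltransferases, which attach sugars to hormones, phenolics and toxins, included 6 genes that rose. The 6 were 17.6% of 34 tested genes, against 2.54% of all named genes, and none of the 34 fell, with a median of 0.08. The 34 were collected by name, so a family member without a family name in the gene table was not counted. UGT84A3, which esterifies hydroxycinnamic acids with glucose, had signals of 185.1 and 192.0 at 72 h, against 99.3 and 64.7 at 0 h (log2 difference 1.23 ± 0.22, adjusted p = 0.00376). UGT87A2 rose by 1.17 ± 0.18 and UGT72E2, a glucosyltransferase of lignin precursors, by 1.09 ± 0.16 (adjusted p = 0.00155 and 8.51e-04). These 3 calls held with each array left out in turn. IAGLU stood at 0.66 (range 0.49 to 0.84), UGT73B5 at 0.64 (range 0.46 to 0.81) and UGT73B4 at 0.55 (range 0.45 to 0.66). The call of UGT73B5 was lost whichever of the 4 arrays was left out. That of IAGLU was lost without 0 h array 2 or either 72 h array, and that of UGT73B4 without either 0 h array or 72 h array 2. Without 0 h array 1, 5 of the 34 were called higher and 1 lower. These last 3 had mean signals of 591.7 (UGT73B5), 983.1 (UGT73B4) and 440.6 (IAGLU) at 72 h, below their means of 1088, 1777 and 854.3 at 3 h.

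The reductase-like pair AT1G75280 and AT1G75290, neighbours on the chromosome, stood among the highest rises. AT1G75280 had signals of 7234 and 6788 at 72 h, against 811.4 and 771.8 at 0 h, an 8.86-fold difference at a high level (log2 difference 3.15 ± 0.19, adjusted p = 1.86e-07). Its mean was higher at each later time, at 791.6, 2658, 3692, 4670.5, 5579 and 7011 from 0 h to 72 h. AT1G75290 had 112.6 and 111.2 at 72 h, against 7.99 and 10.1 at 0 h (log2 difference 3.64 ± 0.29), with both 0 h arrays below the floor, and with the offset stood at 2.34. AER, an alkenal reductase that detoxifies reactive aldehydes, had signals of 389.7 and 377.3 at 72 h, against 115.0 and 170.8 at 0 h, and rose by 1.45 ± 0.19 (adjusted p = 4.18e-04). Its highest mean was that of 3 h, 600.4.

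Other rises were led by genes known only by their locus. AT3G05400, a sugar transporter family gene, had signals of 496.8 and 490.1 at 72 h, against 17.4 and 10.3 at 0 h, and a log2 difference of 5.20 ± 0.28 (adjusted p = 8.50e-08), or 4.09 with the offset. Its mean signal was 82.4 at 24 h, 212.9 at 48 h and 493.5 at 72 h. AT1G12030 had 154.6 and 93.0 at 72 h, against 2.12 and 0.98 at 0 h, a log2 difference of 6.38 ± 0.62 that was 2.94 with the offset, since its 0 h signals were near the bottom of the scale. AT4G31330, AT3G28750, AT2G40250, AT2G43590 and AT4G33960 followed with 2.89, 2.41, 2.39, 2.24 and 2.16. Of these, AT2G43590 was the brightest, with 4687 and 4461 at 72 h, against 1269.6 and 740.7 at 0 h. AT3G28750 was not called without 0 h array 2 (1.74), 72 h array 1 (2.36) or 72 h array 2 (2.46, range 1.74 to 3.08), and AT2G40250 not without 72 h array 2 (2.25, range 1.44 to 3.35). CP1, a cysteine proteinase, had signals of 520.5 and 741.6 at 72 h, against 116.7 and 133.5 at 0 h, and rose by 2.32 ± 0.18 (adjusted p = 3.30e-06). CHX16, a cation/H+ exchanger, rose by 1.60 ± 0.17, the telomerase activator TAC1 by 1.39 ± 0.25 and the cytochrome P450 CYP71B26 by 1.19 ± 0.19. TAC1 was not called without 72 h array 1 (range 1.07 to 1.72).

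Every tested member of a carbon starvation list fell. The list holds genes known to rise in darkness or when sugar runs out, and all 7 tested members were lower at 72 h, with a median log2 difference of -1.86. The list was drawn up with earlier results of these arrays known, so its count is a description. GAT1_2.1, a glutamine amidotransferase-like gene, had signals of 149.2 and 170.1 at 72 h, against 2642 and 3409 at 0 h (log2 difference -4.24 ± 0.92, adjusted p = 0.0145). AT3G15450 was the brightest member, with 1759.8 and 1612 at 72 h, against 6206 and 7508 at 0 h (log2 difference -2.02 ± 0.35). GAT1_2.1 was not called without 0 h array 2 or either 72 h array (range -4.42 to -4.05). AT1G80380 stood at -2.13 and AT2G20670 at -1.86, the second not called without 72 h array 2 (range -1.96 to -1.76). In all 7 the groups were apart, as they were for each of the 427 higher and 479 lower calls. Their summed signal was 3468 and 3335 in the 72 h arrays, against 13475 and 16075 in the 0 h arrays.

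Of the 7, 3 belong to leucine breakdown in mitochondria, which supplies respiration with carbon when sugars are scarce. IVD, isovaleryl-CoA dehydrogenase, had signals of 332.1 and 390.4 at 72 h, against 724.8 and 949.9 at 0 h. MCCA and MCCB are the subunits of the next enzyme. MCCA had 236.4 and 283.5 at 72 h, against 535.3 and 948.2 at 0 h, and MCCB had 246.5 and 206.0 at 72 h, against 455.1 and 487.2 at 0 h. Their log2 differences were -1.20 ± 0.25 for IVD, -1.46 ± 0.26 for MCCA and -1.06 ± 0.22 for MCCB. IVD was not called without 0 h array 2 or either 72 h array (range -1.40 to -1.01), nor MCCB without array 2 of either group (range -1.19 to -0.93). ALDH6B2, a dehydrogenase of valine breakdown, fell by 0.49 ± 0.13 (adjusted p = 0.0374), the only call among 7 tested aldehyde dehydrogenases, and was not called whichever of the 4 arrays was left out (range -0.55 to -0.43). AKINBETA1, a subunit of the energy-sensing SnRK1 kinase, fell by 0.73 ± 0.17, a call likewise lost in each case (range -0.83 to -0.62). With 72 h array 2 left out, 3 of the 7 carbon starvation members were called, and with 0 h array 2 left out 4 were. The lowest mean signals of AT3G15450, AT1G80380, AT2G20670 and GAT1_2.1 were those of 3 h, at 283.5, 95.6, 135.0 and 16.9, so these genes were closer to their 0 h level at 72 h than at 3 h. The deficient medium contained sucrose per the labels. The sugar content of the standard medium was not stated in the labels, and its part in these values was not tested.

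**Figure D3:**
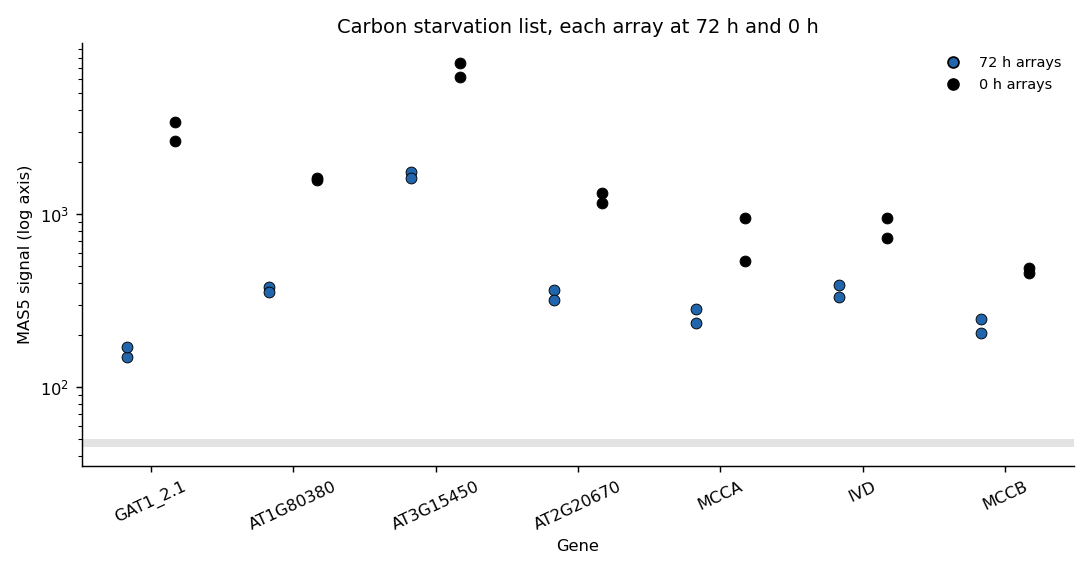
Signal (log axis) of the 7 tested members of the carbon starvation list in each 72 h array (blue, left) and each 0 h array (black, right). Each point is 1 array, the grey band spans the 40th percentiles of the arrays, and for each gene both 72 h arrays lie below both 0 h arrays.

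Respiratory genes taken up after their values were seen gave small rises. Among 13 tested genes for cytochrome c, alternative NAD(P)H dehydrogenases, succinate dehydrogenase and isocitrate dehydrogenase, 3 rose (23.1%, against 2.54% of named genes) and none fell. CYTC-2 rose by 0.76 ± 0.17 (range 0.58 to 0.95), NDB2 by 0.71 ± 0.15 (range 0.53 to 0.90) and SDH2-2 by 0.49 ± 0.14 (range 0.43 to 0.56). SDH2-2 was not called whichever of the 4 arrays was left out. CYTC-2 was not called without either 0 h array or 72 h array 2, and NDB2 not without 0 h array 2 or either 72 h array. In autophagy, which recycles cell contents under starvation, 1 of 11 rose, ATG8B by 0.68 ± 0.17, a call lost whichever of the 4 arrays was left out (range 0.65 to 0.71).

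Genes that inactivate auxin gave opposite directions. GH3.3 and WES1 (GH3.5) join auxin to amino acids. GH3.3 had signals of 103.7 and 76.6 at 72 h, against 262.4 and 251.5 at 0 h, and WES1 had 153.1 and 120.6 at 72 h, against 395.9 and 293.6 at 0 h. They fell by 1.53 ± 0.27 and 1.33 ± 0.24 (adjusted p = 0.00401 and 0.00432). IAGLU, which joins auxin to glucose, had 441.5 and 439.8 at 72 h, against 314.0 and 246.0 at 0 h, and rose by 0.66 ± 0.17 (adjusted p = 0.0306). LBD16, a regulator of lateral root initiation, was not called, with signals of 101.4 and 79.9 at 72 h, against 98.1 and 91.9 at 0 h. Without 72 h array 2 none of GH3.3 (-1.31, range -1.75 to -1.31), WES1 (-1.16, range -1.54 to -1.11) and IAGLU (0.67) was called.

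In the iron deficiency list 1 of 5 tested members fell. AT3G12900 had signals of 49.7 and 2.87 at 72 h, against 186.7 and 88.9 at 0 h, and its log2 difference of -3.43 ± 0.90 (adjusted p = 0.0384) was lost as a call without either 0 h array or 72 h array 2 (range -5.49 to -1.37), being -1.37 without the dim 72 h array 2. The iron regulator BHLH101 had 29.9 and 25.3 at 72 h, against 68.7 and 91.4 at 0 h, with groups that did not overlap but no call (log2 difference -1.53 ± 0.43, adjusted p = 0.0517). The coumarin synthesis gene AT3G13610 (F6'H1), the regulator PYE and BGLU42 stood at -0.58, 0.14 and -0.16. bHLH121, another iron regulator, which came in through the bHLH family, had 143.9 and 126.5 at 72 h, against 226.5 and 231.9 at 0 h, and fell by 0.76 ± 0.16 (adjusted p = 0.0131), not called without 0 h array 2 or 72 h array 2 (range -0.86 to -0.67). Of the nitrogen list, AT1G25550 fell by 0.90 ± 0.16 (adjusted p = 0.00444), with signals of 386.9 and 381.1 at 72 h, against 631.5 and 810.4 at 0 h, and AT1G68670 stood at -0.63 (adjusted p = 0.0614).

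Of the cell wall families, 1 had several rises. Of 7 tested xyloglucan endotransglucosylases, which cut and rejoin the hemicellulose of the wall, 3 rose and none fell. The 3 were 42.9% of the 7, against 2.54% of all named genes called higher. XTH18 had signals of 1398 and 1367 at 72 h, against 231.5 and 498.1 at 0 h, and rose by 2.03 ± 0.29 (adjusted p = 8.27e-04). XTH19, its neighbour on the chromosome, had 1341 and 1274 at 72 h, against 626.8 and 756.6 at 0 h, and rose by 0.92 ± 0.16, and EXGT-A3 rose by 0.54 ± 0.14. The calls of XTH18 and XTH19 held with each array left out in turn, and that of EXGT-A3 was lost in each case (range 0.47 to 0.61). Expansins, which loosen walls, gave 1 rise and 1 fall among 13, EXPB1 at 0.59 ± 0.15 (range 0.42 to 0.75) and EXPA18 at -0.80 ± 0.21 (range -0.90 to -0.69). Neither was called without 0 h array 2 or without either 72 h array. EXPA18 and EXPA7 mark root hairs, and EXPA7 stood at -0.73 ± 0.29 without a call. Their summed signal was 724.4 and 934.6 in the 72 h arrays, against 1244 and 1553 in the 0 h arrays. In RNA of whole roots, fewer cells of a type and less RNA per cell cannot be told apart.

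The few tested markers of other tissues, 1 or 2 genes for each, did not move past the threshold. No gene of the lists for suberin or for xylem and phloem was tested. The endodermis markers GSO1 and AT4G28100 stood at 0.02 and -0.16, the mitotic kinase AUR1 at -0.13, and the root tip gene AGL42 at 0.28. The markers of green tissue, RCA and LHCB4.1, had a summed signal of 468.5 and 651.3 in the 72 h arrays, against 596.3 and 612.5 in the 0 h arrays, and the groups overlapped. PSAN, a subunit of photosystem I, had signals of 68.9 and 89.6 at 72 h, against 158.3 and 217.7 at 0 h (log2 difference -1.24 ± 0.27), and was the only call among 7 tested genes of the light reactions. Of single genes outside that list, CHLM, an enzyme of chlorophyll synthesis, stood at -1.02 ± 0.27, and the thylakoid carrier TAAC at -0.93 ± 0.19. PSAN was not called without 0 h array 2 or 72 h array 1 (range -1.47 to -1.01), TAAC not without array 1 of either group (range -1.12 to -0.75), and CHLM not without 0 h array 2 or either 72 h array (range -1.29 to -0.74). Of 69 tested genes encoded in the plastid genome, 2 fell (2.90%, against 2.97% of named genes), rps4 by 0.55 ± 0.15 (range -0.59 to -0.51) and psbI by 0.77 ± 0.20 (range -0.85 to -0.69). The median of the 69 was -0.14, and both calls were lost whichever of the 4 arrays was left out.

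The lowest pair of log2 differences among the named genes was that of the berberine bridge-like neighbours AT1G26380 and AT1G26390. AT1G26380 had signals of 11.1 and 1.71 at 72 h, against 158.3 and 97.4 at 0 h, and AT1G26390 had 9.17 and 10.8 at 72 h, against 284.5 and 125.0 at 0 h. At 72 h both genes were under the floor on each array, so the log2 differences of -4.83 ± 0.83 and -4.24 ± 0.63 are uncertain in size, and with the offset they were -2.67 and -2.97. The immune regulator WRKY22 had 31.0 and 32.7 at 72 h, against 91.3 and 131.3 at 0 h, and fell by 1.78 ± 0.30 (adjusted p = 0.00246), the 1 call among 6 WRKY genes. Both of its 72 h arrays lay below the floor, and with the offset it stood at -1.39. PUB23, a ubiquitin ligase known to dampen immune responses, had 211.8 and 173.2 at 72 h, against 324.6 and 692.7 at 0 h. It fell by 1.31 ± 0.28, a call lost without 0 h array 2 (-0.76) and without 72 h array 2 (-1.16, range -1.85 to -0.76). STZ and WRKY53, which respond to touch and wounding, were not called. STZ had 76.6 and 103.5 at 72 h, against 147.9 and 748.1 at 0 h, and WRKY53 34.6 and 32.1 at 72 h, against 45.8 and 116.6 at 0 h, with 0 h arrays that differed several-fold. Without 0 h array 1, the lower one, both were called, STZ at -3.07 and WRKY53 at -1.81. The chitinase ChiC rose by 1.33 ± 0.31, a call lost without 0 h array 2 (0.85), 72 h array 1 (1.26) or 72 h array 2 (1.40, range 0.85 to 1.81).

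Further large falls were those of AT2G16005, taken up below, and of genes known only by their locus. AT2G41810 had signals of 60.7 and 63.0 at 72 h, against 281.2 and 350.6 at 0 h, and AT1G10340 had 31.7 and 29.4 at 72 h, against 129.8 and 175.3 at 0 h, with log2 differences of -2.34 ± 0.28 and -2.31 ± 0.30. AT2G25510 had 26.1 and 38.4 at 72 h, against 168.0 and 178.3 at 0 h, and stood at -2.45 ± 0.31. In these 3 the groups were far apart and the calls held with each array left out in turn. AT1G34510 at -2.48 (range -2.52 to -2.44), AT1G64370 at -2.57 (range -3.49 to -1.66), AT5G66650 at -2.46 (range -3.07 to -1.84) and AT1G26250 at -2.58 (range -3.61 to -1.54) were not called without 72 h array 1, 72 h array 2 or at least 1 of the 0 h arrays.

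Among genes of phenylpropanoid metabolism, HCT, an enzyme of lignin synthesis, rose by 0.43 ± 0.12, and CCOAMT, annotated as a caffeoyl-CoA methyltransferase, fell by 1.93 ± 0.47 at signals of 14.7 and 23.3 at 72 h, against 55.4 and 89.4 at 0 h. The HCT call was lost whichever array was left out (range 0.37 to 0.48). That of CCOAMT was lost without 0 h array 2, 72 h array 1 or 72 h array 2, where it lay between -2.27 and -1.58. The clock gene GI (GIGANTEA) had 293.7 and 256.9 at 72 h, against 167.4 and 120.0 at 0 h, and rose by 0.95 ± 0.19 (adjusted p = 0.0072), a call lost without 0 h array 2 or 72 h array 1 (range 0.71 to 1.19), and CCL stood at -0.54 without a call. The labels do not give the hour of harvest. Of the remaining genes with a name, SFP1, a sugar-porter family gene, rose by 1.06 ± 0.28, NANA, an aspartic protease gene, by 1.04 ± 0.23, and the peptide gene RALFL27 by 1.18 ± 0.27. SAPX, a plastid ascorbate peroxidase, rose by 0.57 ± 0.14, and CCS, the copper chaperone of superoxide dismutase, by 0.56 ± 0.15. The call of SFP1 was lost whichever of the 4 arrays was left out. Those of NANA, RALFL27 and SAPX were lost without 0 h array 2 or either 72 h array. That of CCS was lost without either 0 h array or 72 h array 2. Ranges over the 4 omissions were 0.90 to 1.22 (SFP1), 0.83 to 1.24 (NANA), 0.61 to 1.76 (RALFL27), 0.45 to 0.70 (SAPX) and 0.40 to 0.72 (CCS). Lower were YLS5, a DJ-1 family gene, at -0.81 ± 0.16, the small GTPase gene ARLA1B at -0.92 ± 0.15, the actin-binding PLIM2b at -0.87 ± 0.16 and the glutathione-dependent hydrolase GLX2-5 at -0.50 ± 0.14. ARLA1B was called with each array left out, YLS5 and PLIM2b were not called without 72 h array 2 (range -0.98 to -0.64 for YLS5 and range -0.94 to -0.80 for PLIM2b), and GLX2-5 was not called in any of the 4 cases (-0.57 to -0.43). Families with no call were the thioredoxins and glutaredoxins (12 tested, median 0.09), the histones (7 tested, median -0.21), the SWEET sugar transporters (6 tested) and a group of ubiquitin-conjugating enzymes and proteases (23 tested, median -0.01). SWEET14 in this set had signals of 58.4 and 21.9 at 72 h, against 20.0 and 3.31 at 0 h, an uncalled log2 difference of 2.14 ± 1.02 in a dim probe set.

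**Figure D4:**
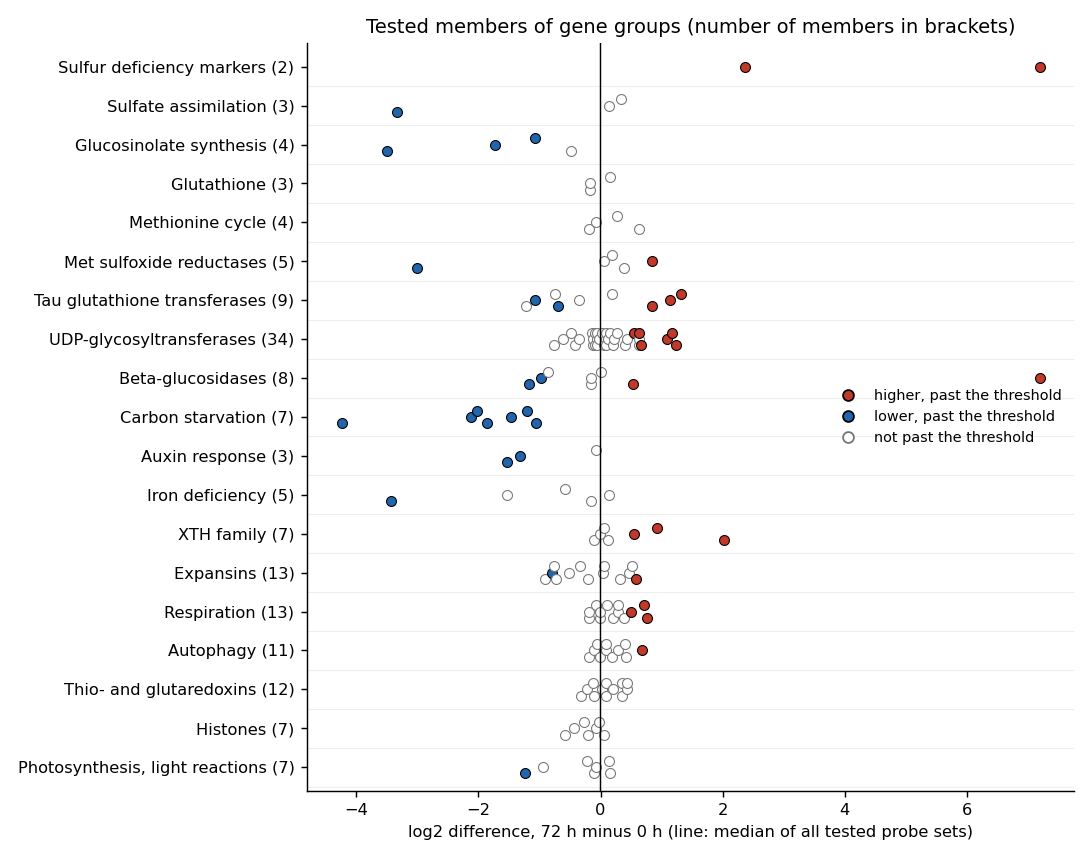
Log2 difference, 72 h minus 0 h, of each tested member of 19 gene groups, with the number of members in brackets. Filled points passed the threshold (red higher, blue lower), open points did not, the vertical line is the median of all tested probe sets, and BGLU28 stands in both of its groups at 7.19. All glucosinolate, carbon starvation and auxin members lie left of the line, and both sulfur deficiency markers lie right of it.

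The step between 48 h and 72 h takes its log2 differences without the 0 h arrays, which entered only the filter and the estimate of spread. It had 12 calls among 14678 probe sets (0.0818%), 1 higher (0.00681%) and 11 lower (0.0749%). An unadjusted p under 0.05 was reached by 717 of the 14678 probe sets. That share is no larger than the 0.05 to be expected if nothing differed, so these probe sets are not read as further changes. Leaving out 72 h array 1 gave 33 calls, leaving out 72 h array 2 gave 3 and leaving out 48 h array 1 gave 2. Of the 7880 named genes 6 were called (0.0761%), all lower at 72 h. BCAT4 had 61.3 and 68.3 at 72 h, against 465.0 and 425.3 at 48 h, a 6.87-fold lower level (log2 difference -2.78 ± 0.17, adjusted p = 2.58e-06). AT2G16005, a lipid-recognition gene, had 98.7 and 146.5 at 72 h, against 698.2 and 424.8 at 48 h (log2 difference -2.18 ± 0.25, adjusted p = 0.00239). The other 4 were AT2G31790 at -1.72 ± 0.27, the serine carboxypeptidase-like gene scpl31 at -1.70 ± 0.29, AT4G01390 at -1.34 ± 0.22 and AT1G21440 at -1.11 ± 0.18, with adjusted p-values of 0.0397 to 0.0498. Their 72 h arrays all lay below their 48 h arrays.

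Of these 6 genes, 2 belong to the 4 tested glucosinolate genes. The median of those 4 was -1.35 between 72 h and 48 h, with GSTU20 at -0.97 ± 0.25 and UGT74B1 at -0.53 ± 0.19, neither called. BCAT4 was nearly level at 12, 24 and 48 h, with means of 542.9, 513.9 and 445.1. By contrast AT2G16005 had means of 2327 at 24 h, 561.5 at 48 h and 122.6 at 72 h, and against 0 h its 72 h level was 18.0-fold lower. The call of BCAT4 held with each of the 72 h and 48 h arrays left out in turn (-2.86 to -2.70). That of AT2G16005 was lost without 48 h array 1 (-2.54 to -1.82 over the 4 omissions), and those of the other 4 without 48 h array 1, 48 h array 2 or 72 h array 2. Over the same omissions AT2G31790 lay between -2.05 and -1.39, scpl31 between -2.31 and -1.08, AT4G01390 between -1.55 and -1.13 and AT1G21440 between -1.36 and -0.87. APS4 (log2 difference -0.82 ± 0.20), MSRB6 (-1.66 ± 0.30), BGLU28 (1.42 ± 0.31) and AT3G05400 (1.25 ± 0.28) were further from 0 h at 72 h than at 48 h in the mean but were not called between these times, with adjusted p-values of 0.385, 0.0764, 0.245 and 0.282. Of the 69 plastid-encoded genes none was called in this step, with a median of -0.32.

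**Figure D5:**
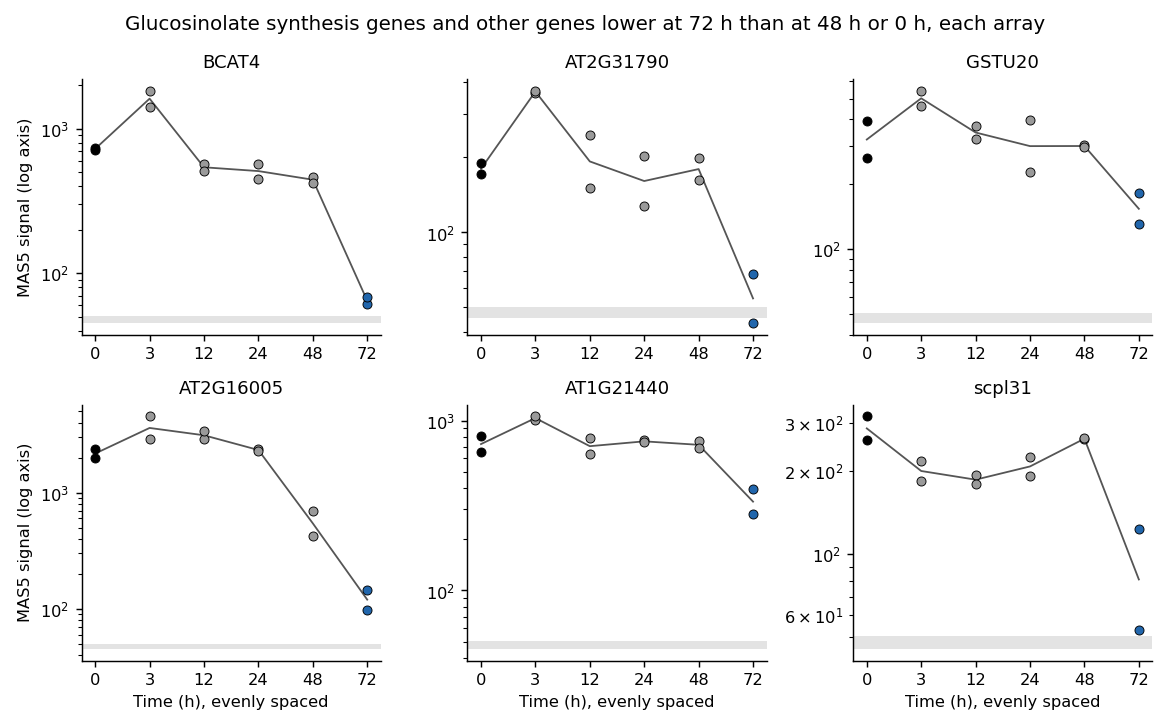
Signal (log axis) of each array over the 6 times, evenly spaced, for BCAT4, AT2G31790, GSTU20, AT2G16005, AT1G21440 and scpl31. Each point is 1 array (black for 0 h, grey for 3 to 48 h, blue for 72 h), the line joins the geometric means and the grey band spans the 40th percentiles of the arrays. All 6 genes lie lowest at 72 h, and AT2G16005 is already lower at 48 h.

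Many of the called probe sets carried no gene name. Of the 427 higher ones 217 and of the 479 lower ones 235 were not listed in the annotation. The highest was 248676_at, with 3902 and 3330.2 at 72 h, against 41.2 and 33.1 at 0 h (log2 difference 6.61 ± 0.22), followed by 246884_at with 1489.9 and 1463 at 72 h, against 20.1 and 12.8 at 0 h. The lowest was 246821_at, with 8.41 and 1.21 at 72 h, against 262.6 and 127.8 at 0 h, followed by 261574_at with 1.51 and 2.07 at 72 h, against 89.3 and 52.5 at 0 h, both near the bottom of the scale at 72 h. Of the higher calls 35 stayed under the floor on each 0 h array, and of the lower calls 50 stayed under it on each 72 h array, so that the size of those differences is uncertain.

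Several called genes were direct neighbours on a chromosome, by gene order in assembly TAIR10.1. Among 2505 neighbouring pairs with both genes tested, 19 had both called, 7 with both higher, 9 with both lower and 3 in opposite directions. Of the 290 neighbours of called genes 38 were called (13.1%, against 5.51% of all named genes). The pairs included BGLU28 with BGLU15, AT1G75280 with AT1G75290, XTH18 with XTH19, AER with AT5G16980, UGT73B5 with UGT73B4, BGLU45 with BGLU46, AT1G26380 with AT1G26390, and MSRB5 with MSRB6. Many are copies of 1 gene family whose probes may share transcripts, and the part of cross-hybridisation in these calls was not tested.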

How the data were processed

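Whole-root RNA was measured on 12 one-colour Affymetrix arrays, 2 for each of 6 times. The deposited values are linear signal intensities made with MAS5 per the submitters' processing notes, and every array's trimmed mean was 250, so they had been scaled already. The deposited intensities were used as they are, without control probe sets, and turned to log2. The labels do not say whether the 2 arrays of a group came from separate cultures, so p-values speak only of the spread among these arrays, and the number of arrays limits the precision.

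Differences were tested with limma 3.58.1 in R 4.3.3, with group means over the 12 arrays (6 residual degrees of freedom) and a prior variance that follows the signal. P-values were adjusted by Benjamini-Hochberg over 14678 probe sets above the 40th percentile on at least 2 arrays, and those under 0.05 were called. Adjusted p-values in the report come from this fit, and ± is its standard error. The fit was tested on simulated data.

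Genes were named through the platform annotation, updated with the gene table of assembly TAIR10.1. A gene is given by its probe set with the highest mean log2 signal, and probe sets of several genes are not named. Named are the 15 highest and 15 lowest differences among calls with groups apart and 1 group above the percentile, up to 4 called members of a list (or up to 2 where none was called), all members of the sulfur lists, the 3 highest and 3 lowest called members of a family, and the calls at 72 h against 48 h. Any other gene was chosen after its values were seen, as were 9 of the families. All members and lists were chosen with earlier results of these data known.

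The annotation gave a probe set of its own to 62 of 506 list entries. The alternatives were an offset before log2, quantile normalization, a stricter filter or none, a prior variance without the trend, the compared groups alone, a replicate block, and each array left out in turn.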

Additional observations from a re-analysis of the deposited data

How the results depend on the processing

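The 906 calls at 72 h against 0 h were 671 with the compared groups alone, 732 without a filter, 615 without a trend, 951 with the offset, 908 with quantile normalization and 867 of 10150 with the stricter filter. With 1 array left out they ranged over 322 to 1005. The share of higher calls was 47.1%, against 55.7% without 0 h array 2 and 50.3% with quantile normalization. The 12 calls at 72 h against 48 h became 29 with the compared groups alone, 6 without a filter and 4 without a trend, and 2 to 33 with 1 array left out. Where an array was left out, the lone array of its group was taken to vary like the other groups.

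The arrays of 1 replicate number did not deviate together (r = 0.072 between 72 h and 0 h, 0.022 between 72 h and 48 h, and -0.231 to 0.198 over the 15 pairs of groups), so the replicate block pairs nothing. With the block 837 calls were made against 0 h and 8 against 48 h.

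Of the 115 genes named in the comparison with 0 h that were called, 45 were called under every alternative that tested them (6 of the 45 were too dim for the stricter filter) and 70 lost the call under at least 1, and no direction turned. The offset changed the call of 0 of 136 named genes, quantile normalization of 5 and the lack of a trend of 44.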
